A study of Homo sapiens with 12 samples.

Results

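The genes described here are DEPP1, a regulator of autophagy known as a FOXO target, with the transcription factors FOXO1, FOXO3 and FOXO4 and 6 genes known as FOXO targets or as parts of the insulin pathway that controls FOXO: IRS1, IRS2, TXNIP, KLF9, CITED2 and PIK3IP1. They are 10 of 19775 genes with a probe set that carries a single symbol, and each was read from its brightest such probe set over the 12 arrays. DEPP1 was picked because it was higher with fibrillar amyloid-β (Aβ) than in its controls. Its values at 24 h are therefore given as a description, without a test.

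The cells were SH-SY5Y, a human neuroblastoma line widely used as a neuron-like model, and total RNA was measured on Affymetrix 3′ expression arrays. There were 4 groups of 3 arrays. Cells with oligomeric Aβ (6 h of incubation) had 6 h controls, and cells with fibrillar Aβ (24 h of incubation) had 24 h controls. Aβ makes up the plaques found in the brain in Alzheimer's disease. The labels give no dose, do not say what the controls received, and leave unsaid whether the incubation refers to the peptide or to the cells. Peptide form and hours changed together, so their effects cannot be told apart. The labels also do not say that the 3 arrays of a group came from separate cultures, so the p-values cover the spread between samples, which may be technical.

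Of 12 markers listed for noradrenergic neuroblastoma, 10 could be read and 9 lay above the level filter (log2 3.78, the median over all probe sets). Among them were the transcription factors PHOX2A, with a mean log2 signal of 10.7, and GATA3, with 12.1. TH, tyrosine hydroxylase, was at 0.73, below the filter. Of 5 glial markers read, 0 lay above the filter, against 1 of 5 for blood or endothelial cells and 1 of 5 for epithelium. In bulk RNA of this kind, fewer cells of a type and less RNA per cell cannot be told apart.

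FOXO proteins are forkhead transcription factors held in check by insulin and growth factors. Receptor signals pass through the adaptors IRS1 and IRS2 to PI3K and the kinase AKT, and AKT phosphorylates FOXO so that it leaves the nucleus bound to 14-3-3 proteins. When the pathway is quiet or cells are stressed, FOXO enters the nucleus and switches on genes of stress defence, autophagy, growth arrest and cell death, and IRS2 itself is among its known targets.

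FOXO proteins bind the letters GTAAACA, which read TGTTTAC on the other strand. The related insulin response motif is CAAAACA, with TGTTTTG as its reverse complement. Both were searched on both strands in RefSeq promoters of GRCh38.p14, which run from 250 bases before the start site to 50 after it and gave windows for all 10 genes. The FOXO letters occurred in at least 1 window of 1145 of 27305 genes, or 4.19%, and in windows of 4 of the 10 genes (3.42% of all 35116 windows held them). A gene can have several windows, up to 4 among these 10. The DEPP1 stretch of 250 bases before the start site is shown in full, because its levels are the centre of what follows, at chr10:44978810-44979059 on the minus strand. Capitals mark the FOXO letters, whose first base lies at position -180 from the start.
DEPP1: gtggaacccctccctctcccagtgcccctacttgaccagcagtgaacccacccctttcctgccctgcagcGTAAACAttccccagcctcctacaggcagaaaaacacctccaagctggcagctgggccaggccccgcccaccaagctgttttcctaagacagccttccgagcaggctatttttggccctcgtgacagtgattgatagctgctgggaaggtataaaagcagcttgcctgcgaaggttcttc

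The other matches are shown with 10 bases on each side, again with the motif in capitals and on the strand of the gene, so that the sites can be compared. TXNIP had the FOXO letters in 1 of 2 windows, at chr1:145996687-145996713 on the minus strand. FOXO4 had them after its start site, at chrX:71095864-71095890 on the plus strand. PIK3IP1 had them in 1 of 2 windows, also after the start site and read on the opposite strand, at chr22:31292456-31292482 of the minus strand. IRS2 was the 1 gene of the 10 with the insulin response letters, also on the opposite strand, at chr13:109786607-109786633 of the minus strand, and 6.05% of all genes (4.92% of all windows) held them.
TXNIP: cgggctcctgGTAAACAaggaccgggc
FOXO4: ccggcgagtgGTAAACAgagacgtcag
PIK3IP1: aaagagaggcTGTTTACcagaacagca
IRS2: agtcacatgtTGTTTTGctcttcttag
No matched motifs overlapped. A match describes the letters of the window and does not show that a factor binds there, and the windows of FOXO1, FOXO3, IRS1, KLF9 and CITED2 held neither motif.

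DEPP1 was lower in the 24 h controls than in every other group, on a probe set whose mean lay close to the filter. In the fibrillar arrays its log2 signals were 4.71, 4.06 and 4.54, against 1.70, 2.32 and 2.26 in the 24 h controls. In the 6 h controls they were 4.79, 4.97 and 4.13, and in the oligomeric arrays 4.30, 5.03 and 4.10. The fibrillar level thus lay among the 6 h levels, and the arrays that stood apart were the 3 controls of 24 h. The order of the group means was 4.63 ± 0.44 in the 6 h controls, 4.48 ± 0.49 with oligomers, 4.44 ± 0.34 with fibrils and 2.10 ± 0.34 in the 24 h controls (SD, n = 3 each). The first 3 of these overlap array by array, and the last overlaps with none.

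As a description, fibrillar arrays exceeded their controls by 2.34 on the log2 scale (SE 0.40), a 5.07-fold difference, and the 24 h controls lay below the 6 h controls by nearly as much, at -2.53 (SE 0.40). Both values rest on the same 3 control arrays of 24 h. With oligomers, where DEPP1 was not chosen on its values, the difference was -0.15 (SE 0.40, limma adjusted p = 1.0, 95% interval -0.99 to 0.69). Over all 11774 genes tested, 331 or 2.81% had all 3 control arrays of 24 h below the other 9. DEPP1 was among them, but since it was picked on part of this pattern nothing is read from that.

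The size of the DEPP1 difference depended on how low signals were read. The mean over the 12 arrays was 3.91, only 0.13 above the filter, and the linear signals of the 24 h controls were 3.26 to 5.01 against 16.6 to 26.2 with fibrils. After 16 was added to the linear signal, the fibrillar difference was 0.90 on the log2 scale and the difference between control groups -1.01. A second DEPP1 probe set, 209182_s_at, had a mean of 3.07, under the filter, and did not show the pattern. Its signals were 3.58, 3.46 and 3.49 in the 24 h controls, 2.47, 3.499 and 3.26 with fibrils, 1.66, 3.21 and 3.61 in the 6 h controls and 3.36, 3.57 and 1.69 with oligomers. On that probe set the fibrillar arrays differed from their controls by -0.43 (SE 0.72), the 24 h controls from the 6 h controls by 0.68 (SE 0.72), both opposite in sign to the brighter probe set, and all 4 groups overlapped. The mean of both probe sets gave 0.95 for fibrils and -0.93 between the control groups.

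**Figure D1:**
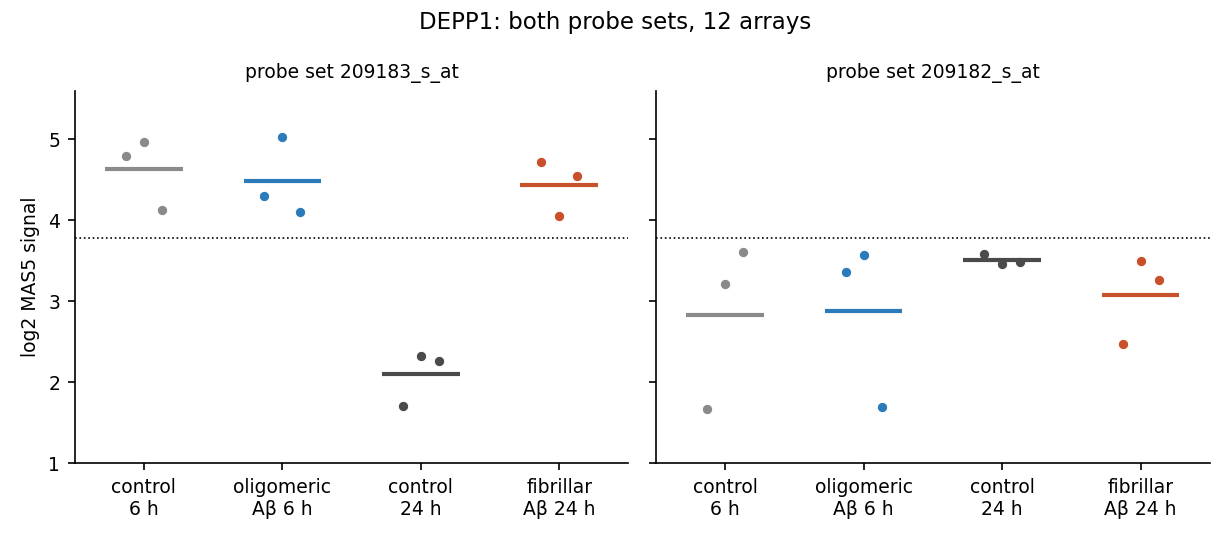
Log2 MAS5 signal of the 2 DEPP1 probe sets in the 4 groups; points are arrays, bars are group means of 3 arrays and the dotted line is the filter at 3.78. In 209183_s_at the 24 h controls lie at 1.70 to 2.32 and the other 9 arrays at 4.06 to 5.03, while in 209182_s_at, under the filter in every array, the groups overlap.

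Measures of the arrays themselves did not overlap between the control groups. The 5′ probe set of 18S ribosomal RNA had a mean log2 signal of 11.6 in the 24 h controls and 9.73 in the 6 h controls. The 3′ less 5′ difference of GAPDH was 0.50 against 0.80, and that of ACTB 2.53 against 2.97. For each of the 3, the two-sided exact permutation test gave p = 0.1, as low as the test can go with 3 arrays a group, and 0.225 after adjustment over 9 comparisons. Between fibrillar arrays and their controls the GAPDH difference was 0.65 against 0.50 (exact p = 0.3), and the 18S signal 11.8 against 11.6 (exact p = 0.1). Their part in the DEPP1 levels was not tested.

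The 5 genes tested whose log2 signals followed DEPP1 most closely over the 12 arrays were ITGA2 (Pearson r = 0.96), CBFB (0.96), ASNS (0.95), WWC3 (0.95) and ACTA2 (0.94). This is a description over arrays that share their groups, and the 5 were picked for their correlation. ITGA2, an integrin subunit that binds collagen, averaged 8.40 in the 24 h controls and 9.66 to 9.79 in the other 3 groups. ACTA2, smooth muscle actin, averaged 7.39 against 8.55 to 8.62, and ASNS, asparagine synthetase, 9.37 against 9.73 to 9.74. Like DEPP1, these genes had their lowest group mean in the 24 h controls.

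**Figure D2:**
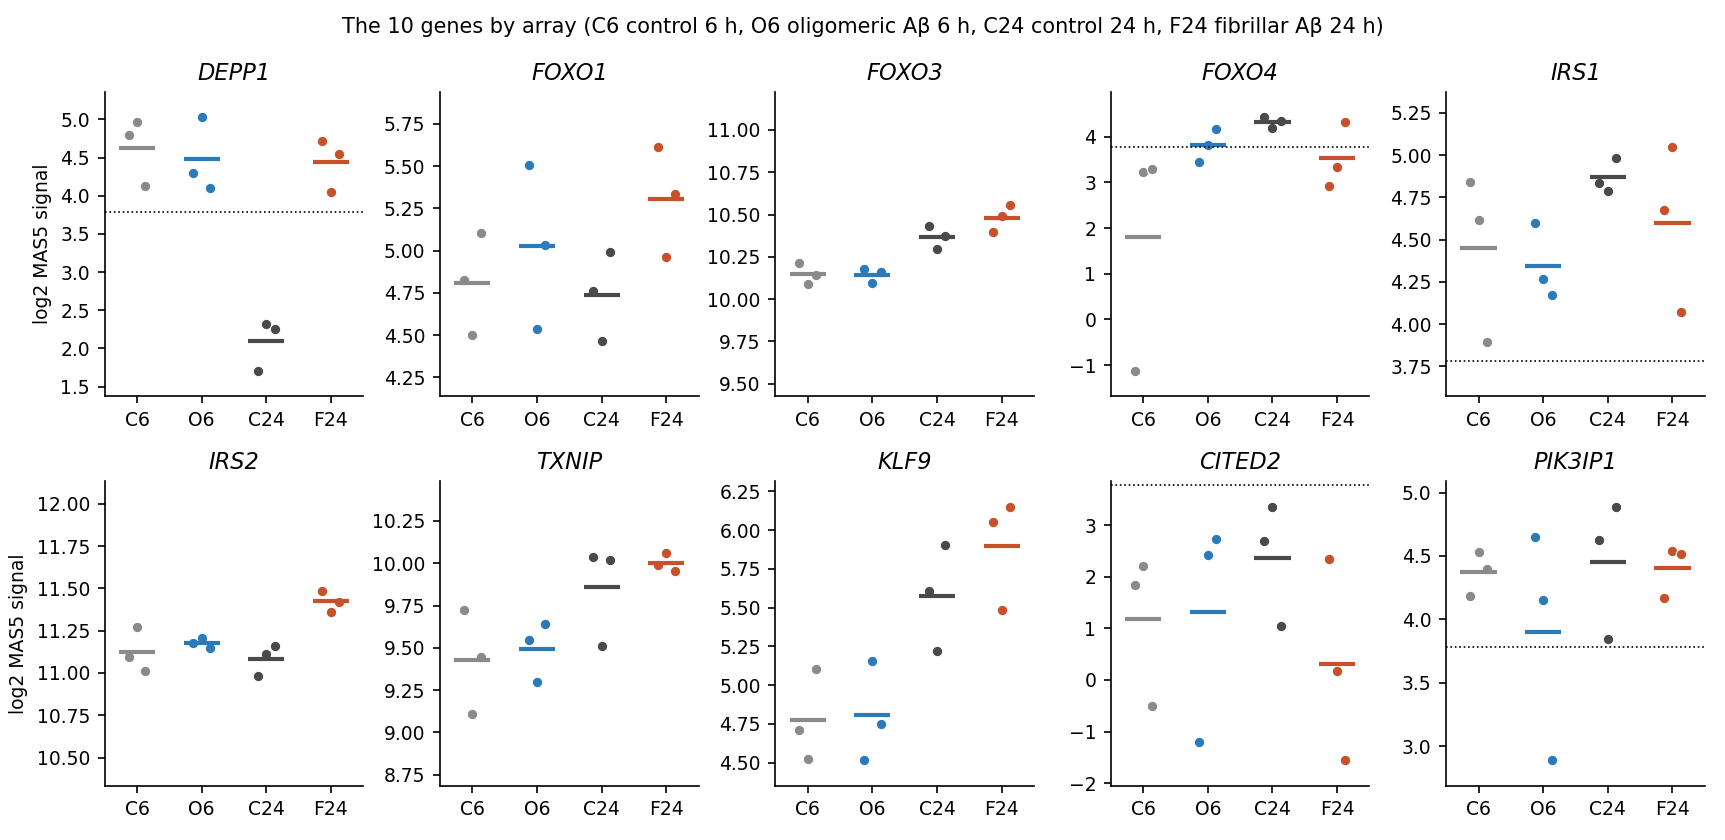
Log2 MAS5 signal of the 10 genes in each array, with group means as bars and the filter at 3.78 as a dotted line where it falls in the range; the vertical scales differ between panels. DEPP1 drops in the 24 h controls, IRS2 is highest with fibrils, and FOXO3 and KLF9 are higher in both 24 h groups than in both 6 h groups.

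Among the FOXO factors, FOXO3 was called between the control groups, close to the threshold, and in neither comparison of Aβ with its controls. Its log2 signals were 10.21, 10.09 and 10.14 in the 6 h controls and 10.18, 10.09 and 10.16 with oligomers. At 24 h they were 10.43, 10.29 and 10.37 in the controls and 10.40, 10.49 and 10.56 with fibrils. Every 24 h array was above every 6 h array, as in 4.11% of all genes tested. The 24 h controls exceeded the 6 h controls by 0.22 (SE 0.07, limma adjusted p = 0.0450), and fibrils differed from their controls by 0.12 (SE 0.07, adjusted p = 0.473, 95% interval -0.03 to 0.26).

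The call between FOXO3 controls was close to the threshold. With each array centred on its median the difference was 0.09 (adjusted p = 0.560), under a centring that moved the median of all genes to -0.15 from -0.02. It was also lost in 7 of the 12 fits that left out 1 array: each 6 h control in turn (limma adjusted p = 0.0568, 0.156 and 0.0997 without replicates 1, 2 and 3), 24 h control replicates 1 (0.164) and 3 (0.117), oligomeric replicate 2 (0.0526) and fibrillar replicate 2 (0.0503). The other 3 FOXO3 probe sets were 0.26 (SE 0.08), 0.31 (SE 0.10) and 0.90 (SE 0.39) higher in the 24 h than in the 6 h controls, with limma adjusted p of 0.0585, 0.0666 and 0.164 when every probe set was tested.

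FOXO1, the factor best known for control of glucose metabolism, was measured nearer the filter. Its signals were 5.61, 4.96 and 5.34 with fibrils and 4.76, 4.47 and 4.99 in the 24 h controls, and those groups overlapped by a single pair of arrays. The difference was 0.56 (SE 0.29, limma adjusted p = 0.402, 95% interval -0.04 to 1.17). A second FOXO1 probe set above the filter averaged 3.94 and 3.98 in the same groups. FOXO4 averaged 3.36 over the 12 arrays, under the filter, and was not tested; its group means were 1.79 in the 6 h controls, 3.81 with oligomers, 4.31 in the 24 h controls and 3.52 with fibrils. All FOXO4 signals with oligomers and in the 24 h controls lay above those of the 6 h controls, of which replicate 1 was far the lowest, at -1.13. FOXO6, the remaining FOXO gene, differed from controls by -0.21 with fibrils (SE 0.13, adjusted p = 0.488), and the control groups by 0.17 (SE 0.13, adjusted p = 0.414).

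IRS2, an adaptor that carries the signal of the insulin receptor to PI3K, rose with fibrils. Its log2 signals were 11.49, 11.36 and 11.42 in the fibrillar arrays and 10.98, 11.11 and 11.16 in the 24 h controls. In the 6 h controls they were 11.09, 11.27 and 11.01, and with oligomers 11.18, 11.21 and 11.14. Among all genes tested, 10.9% had their fibrillar arrays fully above the 24 h controls. On this IRS2 probe set all 3 fibrillar arrays exceeded the other 9, a pattern whose share of all genes was not counted. The difference from the 24 h controls was 0.34 (SE 0.07, limma adjusted p = 0.0395, 95% interval 0.18 to 0.50), or 1.27-fold, and with oligomers it was 0.05 (SE 0.07, adjusted p = 1.0). The test of the 2 responses against each other gave 0.29 (SE 0.10, adjusted p = 0.422), so a difference between them was not shown.

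The IRS2 call was also near its limit. It was lost without oligomeric replicate 2 (limma adjusted p = 0.0519), 6 h control replicate 1 (0.0608), fibrillar replicates 1 (0.113) or 3 (0.150), or any of the 24 h controls (0.177, 0.0737 and 0.0792 without replicates 1, 2 and 3), with differences of 0.29 to 0.38. It also ended under 5 other settings given in the closing section. On the other IRS2 probe set, 209184_s_at, the fibrillar mean was 9.36 ± 0.12 and the 24 h control mean 9.08 ± 0.14 (SD, n = 3 each), with the groups apart and a difference of 0.28 (SE 0.09, adjusted p = 0.174 with every probe set tested). There the fibrillar level matched the 6 h means of 9.34 and 9.35, and the 24 h controls were the lowest, at -0.26 from the 6 h controls (SE 0.09, adjusted p = 0.0891). The 2 IRS2 probe sets therefore share the difference at 24 h and differ in where the 6 h arrays lie.

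IRS1, the related adaptor, had signals of 4.68, 5.05 and 4.07 with fibrils and 4.83, 4.79 and 4.98 in the 24 h controls. The difference was -0.27 (SE 0.32, limma adjusted p = 0.775, 95% interval -0.95 to 0.41). PIK3IP1, a membrane protein that inhibits PI3K, averaged 4.40 ± 0.21 with fibrils and 4.45 ± 0.54 in their controls. With oligomers it averaged 3.90 ± 0.91 against 4.37 ± 0.17 (SD, n = 3 each), at -0.47 (SE 0.42, adjusted p = 1.0). Oligomeric replicate 3, at 2.89, was the lowest of the 12 arrays. A PIK3IP1 probe set under the filter, 1555632_at, averaged -0.88 with oligomers and 2.97 in the 6 h controls, without overlap. Neither IRS1 nor PIK3IP1 passed the test in any of the 4 comparisons.

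TXNIP, an arrestin-like protein that binds thioredoxin and limits glucose uptake, had higher group means at 24 h than at 6 h in both arms, although the test between control groups did not pass. Its log2 signals were 9.73, 9.11 and 9.44 in the 6 h controls and 9.55, 9.30 and 9.64 with oligomers, then 10.04, 9.51 and 10.02 in the 24 h controls and 9.99, 10.06 and 9.95 with fibrils. The control groups overlapped through 24 h control replicate 2. Their difference was 0.43 (SE 0.15, limma adjusted p = 0.0667), 0.27 without 6 h control replicate 2, and that between fibrils and controls 0.14 (SE 0.15, adjusted p = 0.733). On a second TXNIP probe set, 201008_s_at, the control groups were apart, at 7.80 ± 0.23 against 6.91 ± 0.04 (SD, n = 3 each), with a difference of 0.88 (SE 0.16, adjusted p = 0.00255 with every probe set tested).

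KLF9, a zinc finger factor also induced by glucocorticoids and thyroid hormone, had the same order of groups. Its signals were 4.71, 4.52 and 5.10 in the 6 h controls, 4.52, 5.16 and 4.75 with oligomers, 5.604, 5.22 and 5.90 in the 24 h controls and 6.05, 5.48 and 6.15 with fibrils. Every 24 h array was above every 6 h array, a pattern that 4.11% of all genes tested shared. The control groups, apart upward in 13.7% of all genes, differed by 0.80 (SE 0.26, limma adjusted p = 0.0585) and fibrils from their controls by 0.32 (SE 0.26, adjusted p = 0.655).

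As a description, the mean of the 6 arrays of 24 h exceeded that of the 6 arrays of 6 h by 0.28 for FOXO3, 0.47 for TXNIP and 0.94 for KLF9. This contrast was added after the same values had shown these 3 genes to be higher at 24 h, so no test is given for it. The differences of the other genes above the filter were 0.10 for FOXO1, 0.34 for IRS1, 0.10 for IRS2, 0.30 for PIK3IP1 and -1.29 for DEPP1. Of the array measures above, the 18S signal also separated the arrays by time over both arms, at 11.4 to 11.9 at 24 h and 9.31 to 10.7 at 6 h. The GAPDH and ACTB differences did not: fibrillar replicate 1, at 0.81 and 3.06, lay within the ranges of the 6 h arrays. The part of the 18S signal in these levels was not tested.

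CITED2, a cofactor that competes with HIF-1 for its coactivators, could not be measured above the filter. Its 3 probe sets averaged 1.30, 1.07 and 0.78, all under the filter. Single arrays of the brightest ranged from -1.56 to 3.36, and the groups overlapped in each comparison. FOXO4 and CITED2 were thus described and not tested, and 8 of the 10 genes passed the filter.

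Counted by comparison, 0 of 8 genes with a test were called with oligomers at an adjusted p under 0.05 in limma, and 0 had an unadjusted p under 0.05. Among all genes tested the share called was 0%, with 327 (2.78%) at an unadjusted p under 0.05. With fibrils 1 of 7 was called, IRS2, against 1.19% of all genes in either direction. In the test of the responses against each other 0 of 7 were called, 1 had an unadjusted p under 0.05 (8.53% of all genes) and 0.0425% of all genes were called. Between the control groups 1 of 7 was called, FOXO3, against 11.7% of all genes. Over all genes 32.2% of those control calls were higher at 24 h, and 7.33% with each array centred on its median; with fibrils the shares higher were 67.1% and 86.1%, and for the responses 20% of 5 calls and 92.3% of 13. DEPP1 is left out of the last 3 counts. Nothing particular to these genes is read from so few calls.

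**Figure D3:**
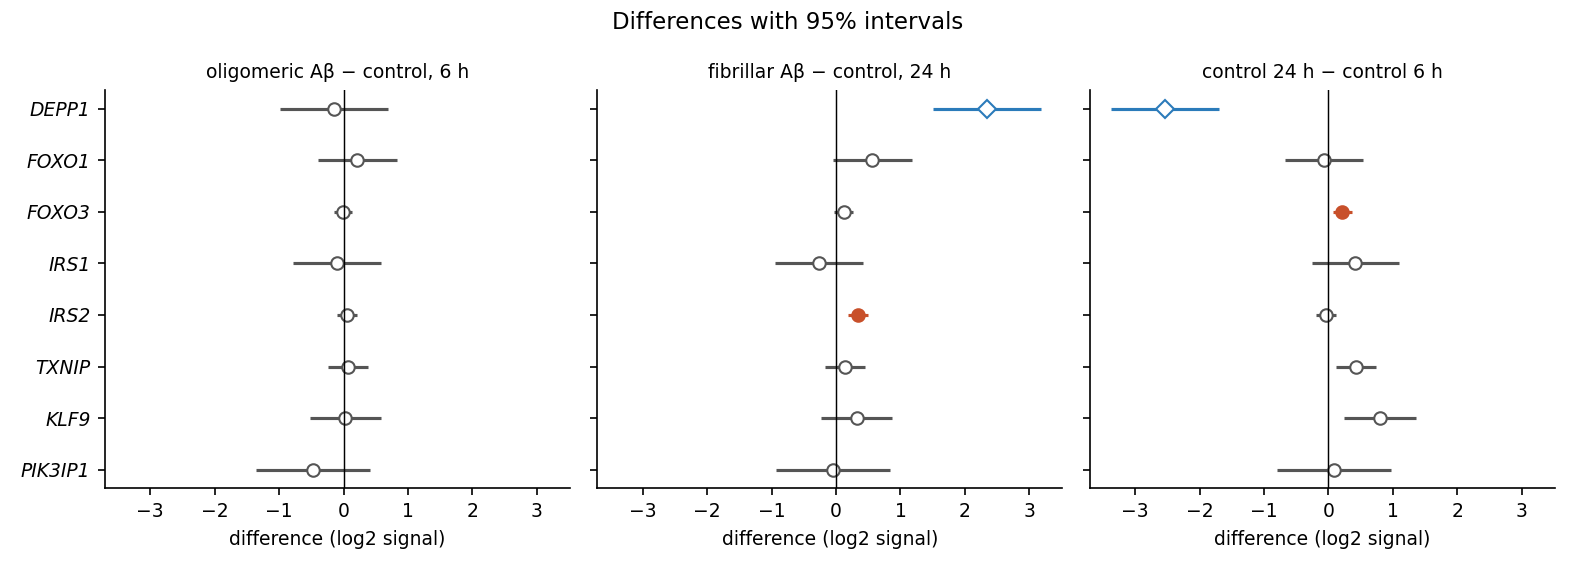
Differences in log2 signal with 95% intervals for the 8 genes above the filter in 3 comparisons; filled points are called by limma, and open diamonds are DEPP1 values given without a test. IRS2 is called with fibrils and FOXO3 between control groups, and DEPP1 lies at 2.34 and -2.53 in the comparisons that share the 24 h controls. DEPP1 was picked on its values at 24 h, so its intervals in those comparisons are a description and are not read as a test.

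All 29 probe sets of the 10 genes were read to see how far 1 probe set stands for its gene. The 4 FOXO3 and 3 TXNIP probe sets all lay above the filter and were all higher in the 24 h than the 6 h controls, by 0.22 to 0.90. A second KLF9 probe set, 203542_s_at, exceeded the 6 h controls by 1.81 at 24 h (SE 0.64, limma adjusted p = 0.0849 with every probe set tested). That value rests on 6 h control replicate 2, whose signal was 1.05 against 4.48 and 4.23 in replicates 1 and 3, and without it the difference was 0.71. Standard errors were 0.68 or more for the probe sets under the filter, and values there are shown without a test.

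**Figure D4:**
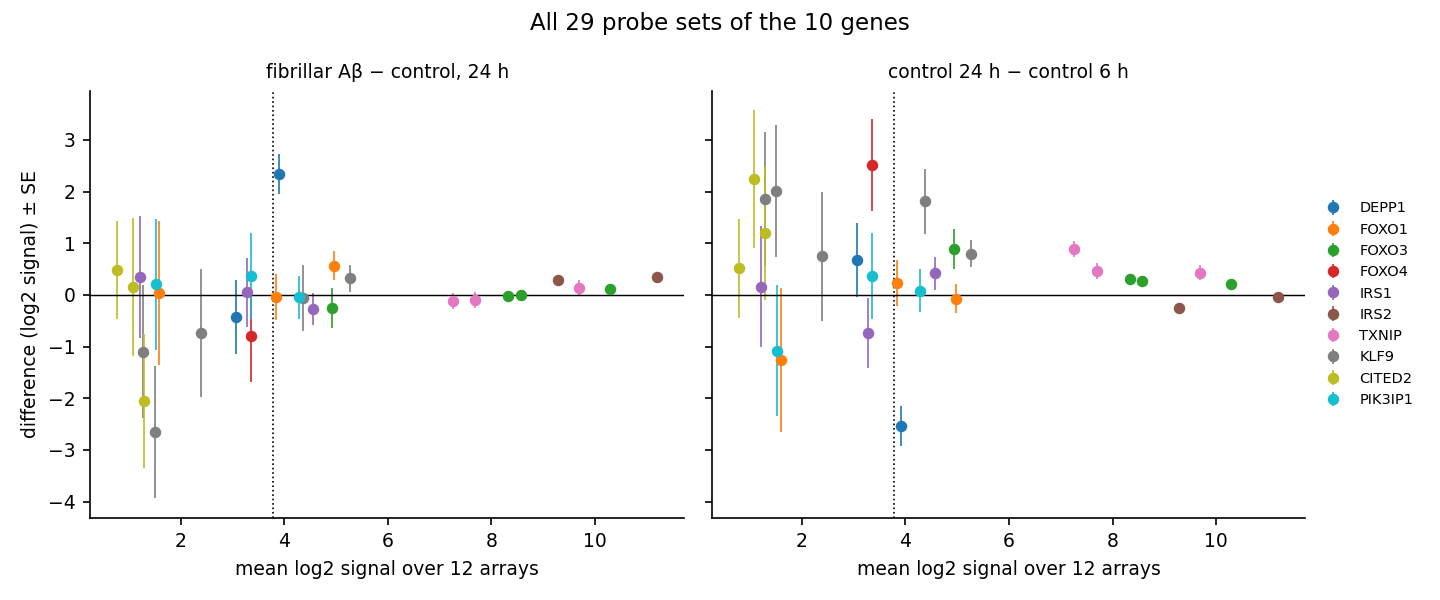
Difference ± SE of every probe set of the 10 genes against its mean log2 signal, for fibrils less controls and for 24 h less 6 h controls; the dotted line is the filter at 3.78. Spread grows towards low signals, and DEPP1 at 2.34 and -2.53 is the probe set just right of the line.

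Genes elsewhere on the pathway were read as lists. Of 20 other FOXO targets tested, 2 rose with fibrils and 0 fell, against 1.19% of all genes called in either direction and 0.798% higher, with a median difference of 0.10, where that of all genes was close to 0. They were CDKN1B, which encodes the cell cycle inhibitor p27, by 0.33 (SE 0.07, limma adjusted p = 0.0321), and GADD45A, a stress gene of growth arrest and DNA repair, by 0.67 (SE 0.14, adjusted p = 0.0341). CDKN1B averaged 10.6 with fibrils and 10.3 in each other group, and GADD45A 8.82 against 8.14 to 8.22. Fibrillar replicate 1 carried part of the GADD45A difference, which was 0.48 without it (adjusted p = 0.0804). Leaving out 1 array ended the CDKN1B call in 5 of 12 fits, those without fibrillar replicates 1 (adjusted p = 0.0804) or 3 (0.161) or any 24 h control (0.128, 0.0621 and 0.111 without replicates 1, 2 and 3). It ended the GADD45A call in 6, the same 5 (0.0804, 0.0778, 0.136, 0.0594 and 0.126) and that without 6 h control replicate 1 (0.0527). A constant prior variance and the compared groups alone also ended both calls (limma adjusted p = 0.134 and 0.0660 for CDKN1B, 0.158 and 0.0722 for GADD45A). The mean of probe sets ended that of GADD45A (0.0529).

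Between the control groups 4 of these 20 targets rose and 0 fell, against 11.7% of all genes called, 3.76% higher and 7.92% lower, with a median of 0.18 against -0.02 over all genes. MXI1, an antagonist of MYC, was higher at 24 h by 0.58 (SE 0.09, limma adjusted p = 0.000854) and kept its call in all 12 fits without 1 array. PDK4, a kinase that shuts pyruvate dehydrogenase, was higher by 0.52 (SE 0.16, adjusted p = 0.0395), and SESN3, a stress-induced inhibitor of mTORC1, by 0.38 (SE 0.12, adjusted p = 0.0412). HBP1, named after its values were seen, was higher by 0.54 (SE 0.17, adjusted p = 0.0452). In the fibrillar arrays MXI1, PDK4 and SESN3 averaged 9.05, 6.60 and 8.61, near their 24 h control means of 8.99, 6.48 and 8.52. With each array centred on its median the PDK4 and SESN3 differences were 0.39 and 0.25 (adjusted p = 0.133 and 0.188). Use of no filter also ended both calls (limma adjusted p = 0.0710 and 0.0559). Quantile normalization (0.0503) and the compared groups alone (0.0601) ended that of PDK4. The mean of probe sets (0.216) and a constant prior variance (0.0932) ended that of SESN3. PDK4 lost its call without any 6 h control (adjusted p = 0.0728, 0.132 and 0.0714), 24 h control replicates 1 (0.0703) or 3 (0.194) or fibrillar replicate 3 (0.0501), and SESN3 without 6 h control replicates 1 (0.110) or 2 (0.138) or 24 h control replicates 1 (0.178) or 3 (0.143).

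With oligomers 0 of the 20 targets were called by limma; the smallest unadjusted p belonged to PINK1, at -0.35 (SE 0.16, adjusted p = 1.0), and PDK4, at -0.28 (SE 0.16, adjusted p = 1.0). SOD2 and CAT, which encode antioxidant enzymes often used as FOXO readouts, differed from controls by 0.30 (SE 0.22, adjusted p = 0.599) and -0.25 (SE 0.08, adjusted p = 0.181) with fibrils. SOD2 was dimmer on the probe set read, with group means of 5.23 to 5.58 against 8.99 to 9.24 for CAT. All 3 CAT signals with fibrils lay below those of the controls.

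In the insulin, PI3K and AKT list, 28 genes were tested and 0 were called with oligomers or fibrils, where 0% and 1.19% of all genes were called. The smallest p with fibrils belonged to IGFBP3, at 0.37 (SE 0.10, limma adjusted p = 0.0752), and SGK1, a kinase related to AKT, at 0.25 (SE 0.09, adjusted p = 0.194). Between control groups 0 rose and 3 fell, a share of the 28 near the 11.7% of all genes called there. SGK1 fell by 0.46 (SE 0.09, adjusted p = 0.00290), IGFBP2 fell by 0.44 (SE 0.10, adjusted p = 0.0112) and IGF2R fell by 0.29 (SE 0.08, adjusted p = 0.0310). The list's median there was close to 0, as was that of all genes. IGF2R was 0.09 higher, with an adjusted p of 0.754, as the mean of its probe sets. A constant prior variance ended the IGFBP2 and IGF2R calls (limma adjusted p = 0.0510 and 0.0728). SGK1 kept its call in all 12 fits without 1 array, IGFBP2 in 9 (not without 6 h control replicate 2, at 0.0674, or 24 h control replicates 2 and 3, at 0.0515 and 0.0514) and IGF2R in 7 (not without any 6 h control, at 0.0695, 0.0523 and 0.106, or 24 h control replicates 1 and 2, at 0.0929 and 0.117).

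The receptors and AKT1 were among the genes of that list that did not pass. With fibrils INSR differed from controls by -0.24 (SE 0.14, limma adjusted p = 0.480), IGF1R by 0.14 (SE 0.14, adjusted p = 0.722) and AKT1 by -0.24 (SE 0.17, adjusted p = 0.583). Between control groups AKT1 was at -0.49 (SE 0.17, adjusted p = 0.0769), with the 3 arrays of 24 h below those of 6 h.

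Of 29 FOXO modifiers, cofactors and 14-3-3 proteins tested, 0 were called in each of the 4 comparisons. Of all genes, 0% were called with oligomers, 1.19% with fibrils, 0.0425% for the responses and 11.7% between control groups. The count between control groups was not stable: it was above 0 in 8 of 25 alternative settings, at up to 6. SIRT1, a deacetylase that acts on FOXO proteins, averaged 8.85 with fibrils and 8.49 to 8.56 in the other groups, with a difference from controls of 0.31 (SE 0.09, limma adjusted p = 0.1002). SETD7, a methyltransferase, was at 0.24 (SE 0.09, adjusted p = 0.213). Between control groups PRKAA2, a catalytic subunit of AMPK, was at 0.45 (SE 0.15, adjusted p = 0.0665) and YWHAE, a 14-3-3 protein, at -0.25 (SE 0.09, adjusted p = 0.0899).

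Among 10 paralogs tested, 0 were called with fibrils, against 1.19% of all genes. Of the 10, 5 lay fully above their controls and 2 fully below, beside 10.9% and 8.73% of all genes. KLF10, a TGF-β inducible relative of KLF9, was at 0.44 (SE 0.11, limma adjusted p = 0.0546) and KLF11 at 0.61 (SE 0.18, adjusted p = 0.122). KLF13, another relative, fell by 0.42 from the 6 h to the 24 h controls (SE 0.09, adjusted p = 0.00802), while KLF9 was at 0.80. That call held in all 12 fits without 1 array and ended with the mean of its probe sets, at -0.39 (adjusted p = 0.280).

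Catalase and peroxisome genes were listed because DEPP1 has been linked to both. Of 14 tested, 0 were called with fibrils, against 1.19% of all genes, with a median of -0.15. PEX26, a peroxisomal membrane anchor, was at -0.66 (SE 0.22, limma adjusted p = 0.180). Between control groups 2 rose, beside 11.7% of all genes called and 3.76% higher: PEX2 by 0.43 (SE 0.09, adjusted p = 0.00602) and ABCD3 by 0.24 (SE 0.07, adjusted p = 0.0452). The mean of the ABCD3 probe sets gave -0.01 there (adjusted p = 0.961), and its call was lost in 7 of 12 fits without 1 array: any 6 h control (0.101, 0.0884 and 0.115), any 24 h control (0.0908, 0.104 and 0.118) and fibrillar replicate 3 (0.0550). Array centring, no filter, every probe set tested and a constant prior variance ended the ABCD3 call too (limma adjusted p = 0.433, 0.0705, 0.0553 and 0.101). PEX2 kept its call in all 12 fits without 1 array.

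Steroid-inducible genes were read because DEPP1, also called decidual protein induced by progesterone, and KLF9 are known to respond to steroids. Of 8 tested, 3 fell between the control groups, where 11.7% of all genes were called and 7.92% were lower: FKBP5, a cochaperone of the glucocorticoid receptor, fell by 0.45 (SE 0.09, limma adjusted p = 0.00315), ERRFI1, an inhibitor of EGFR, fell by 0.59 (SE 0.16, adjusted p = 0.0237), and SGK1 is given above. The list's median was -0.41, against -0.02 over all genes. With fibrils 1 of 8 was called, against 1.19% of all genes: ERRFI1 was higher by 0.70 (SE 0.16, adjusted p = 0.0450), with means of 8.19 with fibrils, 7.49 in the 24 h controls, 8.08 in the 6 h controls and 8.24 with oligomers. As with DEPP1, the 24 h controls were the low group for ERRFI1. FKBP5 was instead low in both 24 h groups, at 7.98 with fibrils and 7.90 in the controls. At 6 h it averaged 8.39 with oligomers and 8.35 in the controls. All 8 differences with fibrils were above 0, with a median of 0.27, in a comparison that shares the 24 h controls with the one just given.

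FKBP5 kept its call between control groups in all 12 fits without 1 array. ERRFI1 lost the call between control groups without 6 h control replicates 2 (limma adjusted p = 0.0900) or 3 (0.0568) or any 24 h control (0.0847, 0.0505 and 0.0554). Its call with fibrils was lost in 9 of 12 fits: without oligomeric replicate 2 (0.0578), any 6 h control (0.0667, 0.0580 and 0.0555), fibrillar replicates 1 (0.110) or 3 (0.112) or any 24 h control (0.177, 0.0863 and 0.122). The fibrillar difference was 0.47 without fibrillar replicate 1 and 0.66 to 0.77 without 1 of the other arrays of 24 h named here. The ERRFI1 call with fibrils also ended with no filter (0.0571), the mean of probe sets (0.0638) and every probe set tested (0.0567). A constant prior variance (0.181) and the compared groups alone (0.0933) ended it too. Between control groups a constant prior variance ended the ERRFI1 call (0.0767).

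**Figure D5:**
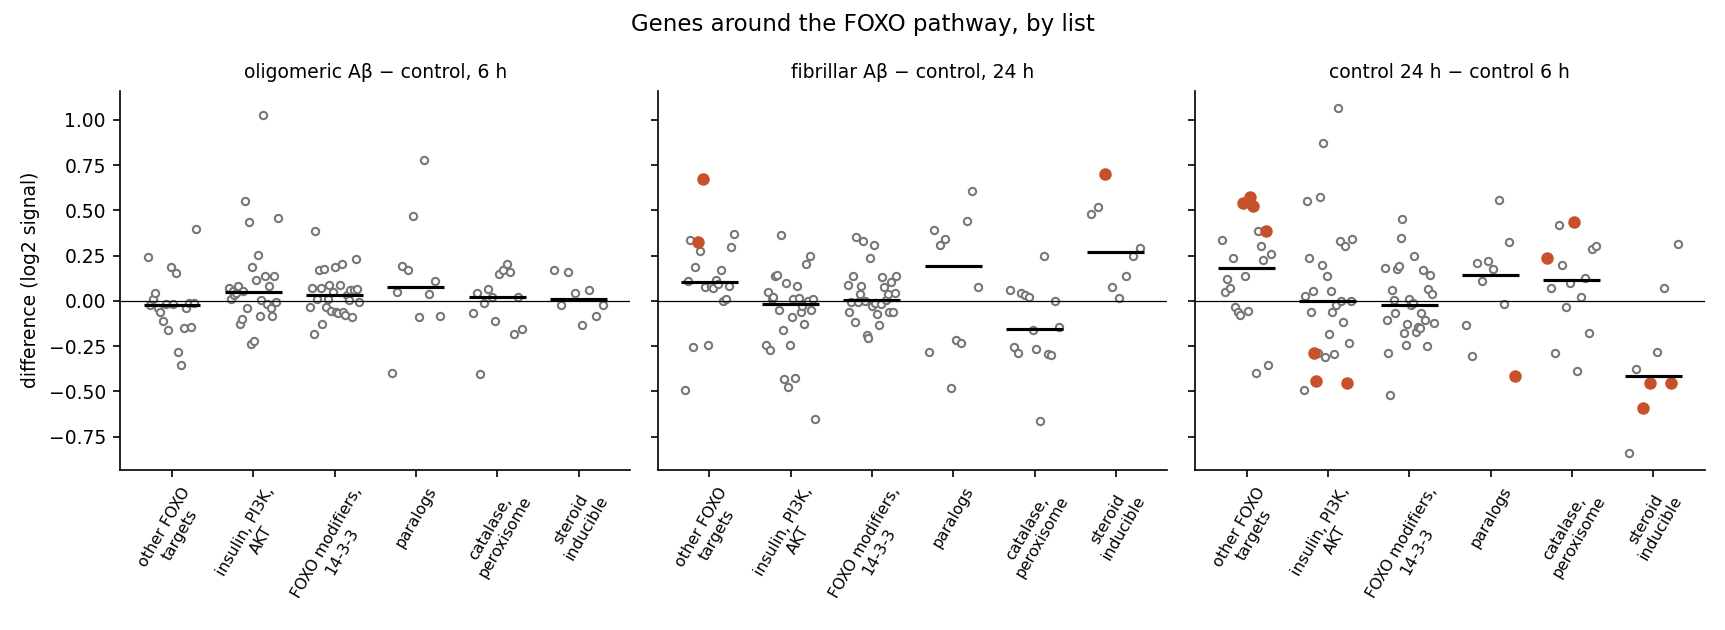
Differences in log2 signal of the genes tested in 6 lists, in 3 comparisons; each point is a gene, bars are list medians and filled points are called by limma. Other FOXO targets have 2 called points with fibrils and 4 between control groups, all above 0, and steroid-inducible genes 3 below 0 between control groups.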

How the data were processed

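The values deposited by the authors are on the log2 scale and come from MAS5 (the submitters' processing notes name it without a version). On each array the linear signal had a trimmed mean of 100, so arrays were used without further scaling. Depth has no meaning for arrays, and their number, 3 a group, limits the precision. Replicates within a group correlated at 0.884 to 0.902 over probe sets, and no arrays held identical values.

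Of 54675 probe sets, 62 were controls, 41091 carried 1 symbol, 1801 several and 11721 none, by the platform annotation. Genes with a probe set whose mean over 12 arrays reached the median of all probe sets (log2 3.78, a signal of 13.8) were tested on the brightest one, 11774 in all. A limma model of group means (limma 3.58.1, R 4.3.3, data.table at version 1.17.8) used every array, with a prior variance that followed the level. Genes were called at a Benjamini-Hochberg adjusted p under 0.05 over all genes tested. There were 4 contrasts. The fibril comparison, the response difference and the control comparison all use the 24 h controls, so their values are not independent.

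The members and gene lists were chosen with earlier results of these data known. SGK1, CAT, INSR and RICTOR stand on 2 lists each. For each list and comparison the text names up to 3 called genes per direction, those with the smallest p, or the 2 with the smallest p where none was called and the list is described for that comparison. FOXO6, CAT, SOD2, INSR, IGF1R, AKT1 and SIRT1 were always named. Promoter windows came from RefSeq. The labels do not say whether arrays with the same replicate number share a culture or day, so the main fit did not use that number. Same-numbered arrays of treated and control groups had deviations that correlated at -0.02 to 0.09. Correlations this small do not settle whether the numbers pair the samples. Alternatives covered scaling, filter, probe set choice, prior variance, array weights, samples fitted, the replicate block, an offset of 16 on the linear signal, the threshold and each array left out. The fit was tested on simulated data.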

Additional observations from a re-analysis of the deposited data

Results flagged for a closer look

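In 3 genes, every array with oligomers lay on one side of its controls and every array with fibrils on the other. Only the members and the genes named from the lists were searched. These 3 were each named for a small p in the test of the difference, which favours such a pattern. Nothing is therefore read from their number. ATG12, which takes part in autophagosome formation, differed by 0.24 with oligomers and -0.49 with fibrils, and the test of the difference gave -0.74 (SE 0.20, limma adjusted p = 0.252). CITED1, a relative of CITED2, differed by 0.47 and -0.48, with a test of the difference at -0.95 (SE 0.31, adjusted p = 0.334). PEX5, the import receptor of peroxisomes, differed by 0.16 and -0.29, with a test of the difference at -0.45 (SE 0.15, adjusted p = 0.356). None of the 3 differences passed the test. The number of genes with this pattern among all genes was not counted.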

How the results depend on the processing

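The IRS2 call with fibrils gave a count of 1 of 7 genes, which became 0 with no filter, the mean of probe sets, every probe set tested, a constant prior variance and the compared groups alone (limma adjusted p 0.0642, 0.0902, 0.0522, 0.168 and 0.0660), and 0 to 1 without 1 array. The FOXO3 call between control groups gave 1 of 7, which became 0 with array centring, no filter, every probe set, a constant prior variance or the compared groups alone. It became 2 with array weights, 3 with the mean of probe sets or an adjusted p under 0.10, and 0 to 3 without 1 array. With the replicate number as a replicate block the count was 3, TXNIP and KLF9 being called too (limma adjusted p 0.0201 and 0.0496). Whether the numbers pair the samples is not known. The block left the other member counts as they were. Without 24 h control replicate 2 the count between control groups was also 3. Causes were not tested. DEPP1, picked on its values at 24 h, was at 0.90 with fibrils and -1.01 between control groups with log2 of the signal plus 16.

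All member signs that reversed belonged to differences without a call. With oligomers, KLF9 was -0.011 with quantile normalization and -0.036 with array centring, IRS2 -0.013 with centring, FOXO3 0.068 and TXNIP -0.065 with the mean of probe sets, and TXNIP -0.037 with array weights. With fibrils, PIK3IP1 was 0.031 with quantile normalization and 0.025 with centring, and the mean of probe sets gave -0.038 for FOXO3 and -0.022 for TXNIP. For the response difference the mean of probe sets gave -0.11 for FOXO3 and -0.34 for KLF9. Between control groups PIK3IP1 was -0.039 with quantile normalization and -0.047 with centring, and the mean of probe sets gave 0.083 for FOXO1. Outside the members, the mean of probe sets there gave -0.011 for ABCD3 and 0.092 for IGF2R, both reversals of calls.

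Without 1 array, the oligomer differences ranged from -0.43 to 0.036 for DEPP1, -0.025 to 0.46 for FOXO1, -0.033 to 0.027 for FOXO3, -0.38 to 0.090 for IRS1, -0.0065 to 0.13 for IRS2, -0.090 to 0.22 for TXNIP, -0.15 to 0.19 for KLF9 and -0.85 to 0.031 for PIK3IP1. Fibril differences ranged from -0.50 to -0.0060 for IRS1, 0.14 to 0.52 for KLF9, -0.029 to 0.23 for TXNIP and -0.35 to 0.17 for PIK3IP1. Response differences ranged from -0.098 to 0.23 for TXNIP, -0.080 to 0.80 for PIK3IP1 and -0.39 to 0.11 for IRS1. Control differences ranged from -0.13 to 0.39 for PIK3IP1, -0.099 to 0.033 for IRS2 and -0.23 to 0.075 for FOXO1. Signals near the filter limit DEPP1, FOXO1, IRS1 and PIK3IP1, whose standard errors were 0.29 to 0.42.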
